A study of Mus musculus with 6 samples.

Results

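The late-numbered microRNAs (miRNAs) described here are the TaqMan assays whose name carries a number of 1000 or higher straight after miR-, whatever the species prefix, without miR-1937 and without assays whose names end in #. Of the 750 miRNA assays measured, 85 met this rule, and all 85 lay on card B, which held 290 other miRNA assays. Card A held the remaining 375. The rule used names only and no measured value.

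Per the labels, blastocysts of Kunming mice, an outbred Chinese stock, were cultured in CZB, a simple embryo medium. The study's methods state that they were taken from the oviducts of young females that had been superovulated with hormones and mated. There CZB is named only for the wash after thawing. The blastocysts made up 3 vitrified pools (V1, V2 and V3) and 3 fresh pools (F1, F2 and F3). Vitrified blastocysts had spent 30 seconds in a pretreatment solution of ethylene glycol and DMSO and 25 seconds in the vitrification solution EDFS30 inside an open pulled straw. They were then plunged into liquid nitrogen and later thawed for 5 minutes in 0.5 M sucrose. Each value belongs to a pool of many embryos, so that no embryo or mother can be followed, and in such bulk RNA fewer cells of a type and less RNA per cell cannot be told apart. The labels do not say that the pools came from separate cultures or days, so the p-values below measure only the spread between these pools.

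A miRNA is a short RNA cut from a hairpin precursor, and it directs repression of messenger RNAs that pair with its seed, the bases just after its first base. Numbers were given to miRNAs in the order in which they were reported, so high numbers mark sequences that mostly came from deep sequencing, after the abundant and conserved families had been named. In the mouse blastocyst the well known miRNAs are those of the miR-290 to miR-295 cluster, which is active in pluripotent cells and trophoblast. Some late-numbered miRNAs have unusual origins. Mirtrons such as miR-1224 and miR-1981 are made from short spliced introns, and miR-1306 comes from a hairpin inside the Dgcr8 transcript, which encodes a partner of the enzyme Drosha.

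RefSeq mature sequences under exactly the assay's name were found for 41 of the 85 members. For another 14 RefSeq lists arms that the card name does not tell apart, and 30 had no entry in the table used. A signal in at least 1 pool was seen for 25 of these 30, against 18 of the 41 and 7 of the 14. No entry was found for miR-2134, miR-2146, miR-2182, miR-1274a, miR-1944, miR-1186, miR-1949 and miR-1971, which are described below without a sequence. The 4 sequences below belong to members that were higher in both vitrified pools than in both fresh pools when the pools numbered 2 and 3 were compared. They are written 5′ to 3′ with the seed (bases 2 to 8) in capitals.
miR-1839-5p: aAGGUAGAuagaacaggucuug
miR-1896: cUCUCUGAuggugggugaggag
miR-1905: cACCAGUCccaccacgcgguag
miR-1960: cCAGUGCUguuagaagagggcu

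On the GRCm38.p6 build miR-1839-5p lies at chr7:81529919-81529940 on the plus strand, within the span of 2900076A07Rik. miR-1896 lies at chr13:21445209-21445230 on the plus strand, within the spans of Zscan26 and 4930470G03Rik. miR-1905 lies at chr3:88536311-88536332 on the minus strand, within Mex3a, and miR-1960 at chr5:30170751-30170772 on the plus strand, within Hadhb. The gene spans do not tell exon from intron. Of the 41 members with an exact sequence, 33 lay within the span of another gene.

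miR-1188, which behaved like those 4, comes from the imprinted Dlk1-Dio3 locus within the span of Rian, a long noncoding RNA. The card does not say which arm is measured, so both are shown, at chr12:109611841-109611861 and chr12:109611877-109611901 on the plus strand.
miR-1188-5p: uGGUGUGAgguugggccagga
miR-1188-3p: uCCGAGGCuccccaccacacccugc

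The next sequences belong to members with an early signal in some pools and none in others (miR-1951, miR-1956 and miR-1969), and to a member determined in every pool (miR-1894-3p).
miR-1951: gUAGUGGAgacugguguggcua
miR-1956: aGUCCAGGgcugagucagcgga
miR-1969: aAGAUGGAgacuuuaacaugggu
miR-1894-3p: gCAAGGGAgagggugaagggag

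miR-1951 lies at chr2:115638777-115638798 on the plus strand, within BC052040. miR-1956 lies at chr3:138526425-138526446 on the plus strand within Eif4e, which encodes the cap-binding protein of translation. miR-1969 lies at chr8:70925541-70925563 on the plus strand with no gene span over it. miR-1894-3p lies at chr17:35917938-35917959 on the plus strand, within Ppp1r10.

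Most seeds were not shared with any other RefSeq mouse miRNA. Of the 18 members that had an exact sequence and were determined in at least 1 pool, 4 shared a seed with another mouse miRNA. The 2 shown next share theirs with families of low number.
miR-1961: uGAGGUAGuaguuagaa
let-7g-5p: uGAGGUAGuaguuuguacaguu
miR-1928: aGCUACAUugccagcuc

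miR-1961, at chr5:92788465-92788481 on the minus strand within the span of Shroom3, carries the seed of the let-7 family. Over its 17 bases it matches let-7g-5p at 15, and the differences are A14U and A16U, counted from the 5′ end with the base of miR-1961 first. miR-1928, at chr1:74206562-74206578 on the minus strand, carries the seed of miR-221-3p and miR-222-3p. The median GC content of the 41 exact sequences was 54.5%, against 47.6% for 693 RefSeq mature mouse miRNAs with numbers under 1000.

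A Ct, the PCR cycle at which a well crosses the fluorescence threshold, was determined for 50 of the 85 late-numbered assays in at least 1 pool. A lower Ct means more template, and wells that had not crossed by 40 cycles are called undetermined. The share of 58.8% was close to that of the other card B assays, of which 173 of 290 (59.7%) were determined in at least 1 pool, and lower than that of card A with 267 of 375 (71.2%). Full sets were fewer. All 6 pools gave a Ct for 6 late-numbered assays (7.06%), against 36 of the other card B assays (12.4%) and 80 of card A (21.3%).

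The remaining members were spread thinly over the pools. A single pool gave a Ct for 11 members, 2 pools for 7, 3 pools for 5, 4 pools for 15 and 5 pools for 6. Among the 11 members seen in a single pool the Ct ran from 27.57 to 37.89 with a median of 35.17, and 6 of the 11 were seen in V3 alone. No member was determined in at least 2 pools of one group and in no pool of the other.

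V1 gave a Ct for 15 late-numbered miRNAs, V2 for 33 and V3 for 35. Of the fresh pools F1 gave one for 10, F2 for 35 and F3 for 38. The means were 27.7 ± 11.02 (SD, n = 3) for vitrified and 27.7 ± 15.37 (SD, n = 3) for fresh pools, and each group had 83 determined wells of 255. The pools numbered 1 were low in both groups, and the equal totals include them. In the pools numbered 2 and 3 alone the vitrified pools had 2.5 fewer determined members per pool, and with a limit of 35 cycles the determined wells of all pools were 74 in vitrified and 70 in fresh. Over all 750 miRNA assays the counts were 382 in V2, 407 in V3, 409 in F2 and 405 in F3. The determined wells of all pools were 1007 in vitrified and 954 in fresh, and 919 and 880 with the limit of 35 cycles.

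**Figure D1:**
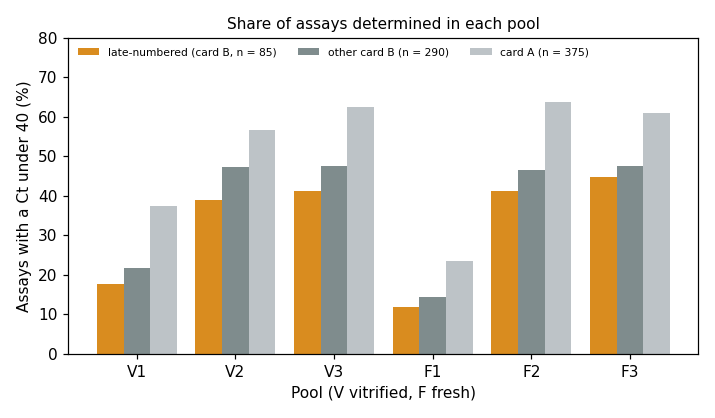
Share of assays with a Ct under 40 (%, vertical axis) in each pool (horizontal axis), for the 85 late-numbered assays, the 290 other miRNA assays of card B and the 375 of card A; each bar is 1 pool. V1 and F1 are the lowest pools for all 3 sets, with 15 and 10 late-numbered assays determined against 33 to 38 in the other 4 pools.

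V1 and F1 stood apart across the cards. The mean Ct of the U6 wells, the small nuclear RNA used as reference, ranged only from 16.52 to 17.72 over the 6 pools on card B. The small nucleolar RNA snoRNA202 on the same card was at 25.97 in V1 and 27.74 in F1, against 16.94 to 18.59 in the other pools. Among markers of the blastocyst itself, miR-291a-3p, miR-292-3p, miR-293, miR-294 and miR-295 were determined in V2, V3, F2 and F3 and undetermined in V1 and F1. The same held for miR-290-5p on card B, while miR-290-3p was determined in F2 alone and the assay named miR-290 in no pool. Of the miR-302 family, miR-302a, miR-302c and miR-302d were undetermined in all pools and miR-302b was determined in V3 and F2 alone. Results that include V1 and F1 are therefore given beside those without them.

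**Figure D2:**
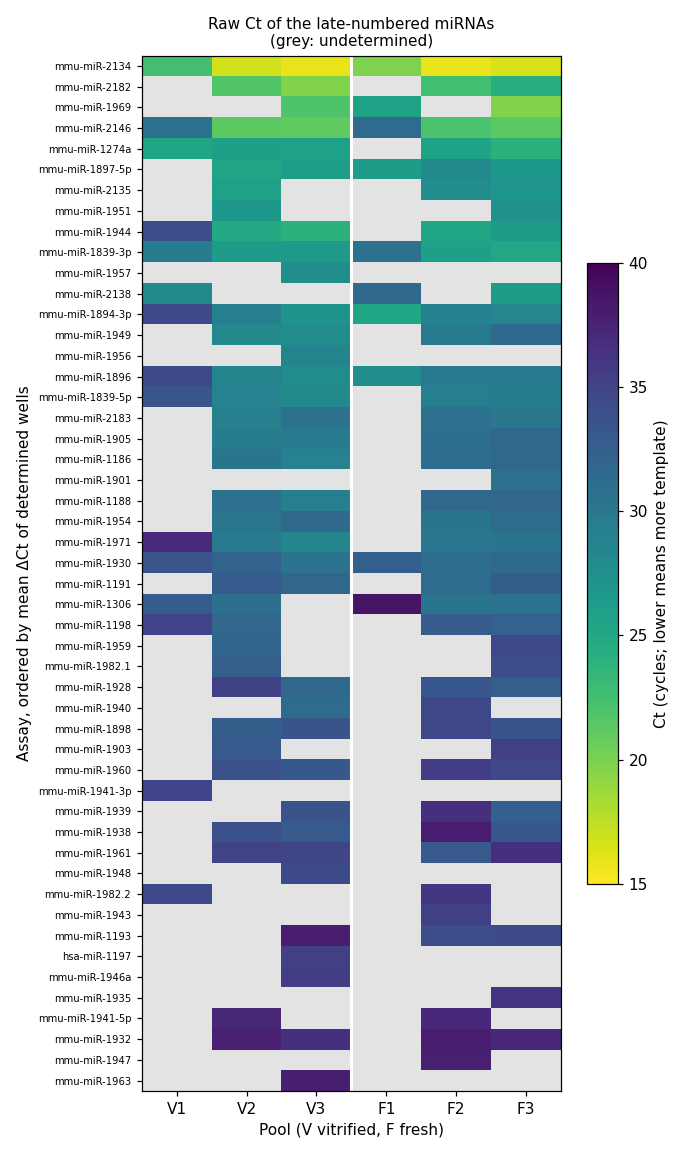
Raw Ct (colour, cycles; lower means more template) of the 50 late-numbered assays determined in at least 1 pool (rows, ordered by mean ΔCt of their determined wells) in the 6 pools (columns); grey marks undetermined wells. The top row is miR-2134, between 15.72 and 22.45 in all pools, and the columns V1 and F1 are mostly grey.

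Signal was uneven over the number ranges. Of the 8 members from miR-2134 to miR-2183, 6 were determined, and 54.2% of their wells gave a Ct, the earliest at 15.72. The 5 members from miR-1224 to miR-1839 gave a Ct in 70.0% of wells, with 4 of 5 determined. The largest range, miR-1927 to miR-1971, held 44 members of which 25 were determined, in 25.4% of wells. From miR-1186 to miR-1199 there were 6 of 10, from miR-1893 to miR-1906 there were 7 of 15, and from miR-1981 to miR-1982 there were 2 of 3.

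miR-2134 was the earliest late-numbered assay in every pool. The vitrified pools V1, V2 and V3 crossed at 22.45, 16.75 and 15.85 cycles, and the fresh pools F1, F2 and F3 at 19.84, 15.72 and 16.49. Among all miRNA assays of both cards it ranked 2 in V2, V3, F2 and F3, 6 in V1 and 5 in F1. ΔCt is the Ct after subtracting the average of 4 U6 wells on that card and in that pool. For miR-2134 the vitrified mean was 1.05 ± 3.24 (SD, n = 3) and the fresh mean 0.36 ± 2.27 (SD, n = 3). The pools numbered 1 were the latest, with a ΔCt of 4.79 in V1 and 2.95 in F1, and the other 4 were between -1.22 and -0.67. The log2 fold change of -0.69 did not exceed the SD of either group (2-sided exact permutation test, p = 0.6; 3 pools against 3 allow no p under 0.1).

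miR-2146 showed how far the pools numbered 1 lay from the rest. Its Ct was 30.58 in V1 and 31.29 in F1, against 21.26 in V2, 21.06 in V3, 22.03 in F2 and 21.30 in F3. ΔCt was 7.003 ± 5.15 (SD, n = 3) and 7.88 ± 5.67 (SD, n = 3), and the log2 fold change of 0.88 did not exceed this spread (exact permutation test, p = 0.6).

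miR-1839-3p crossed at 29.76, 26.21 and 26.59 cycles in V1, V2 and V3, while F1, F2 and F3 were at 30.67, 25.89 and 24.99. Its group means differed by a log2 fold change of -0.04 with overlapping pools (exact permutation test, p = 1). miR-1930, from a hairpin within the span of Ube2g2, moved least of the 6 over the pools, from 30.46 in V3 to 33.40 in V1, with 32.07 in V2, 32.44 in F1, 30.94 in F2 and 31.34 in F3. Its log2 fold change was -0.10 (exact permutation test, p = 0.8).

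miR-1896 and miR-1894-3p behaved differently in the pools numbered 1. For miR-1896 the vitrified pools V1, V2 and V3 crossed at 34.49, 28.71 and 27.94 cycles, whereas F1, F2 and F3 did so at 27.51, 29.81 and 29.64. For miR-1894-3p the vitrified values were 34.44, 29.18 and 27.07 and the fresh values 25.19, 28.97 and 28.47, in the same pool order. For both assays V1 was the latest of the 6 pools and F1 the earliest. The log2 fold changes over all 6 pools were -1.09 for miR-1896 (exact permutation test, p = 0.8) and -2.38 for miR-1894-3p (exact permutation test, p = 0.5). In the pools numbered 2 and 3 alone the signs turned, to 1.47 and 0.66.

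**Figure D3:**
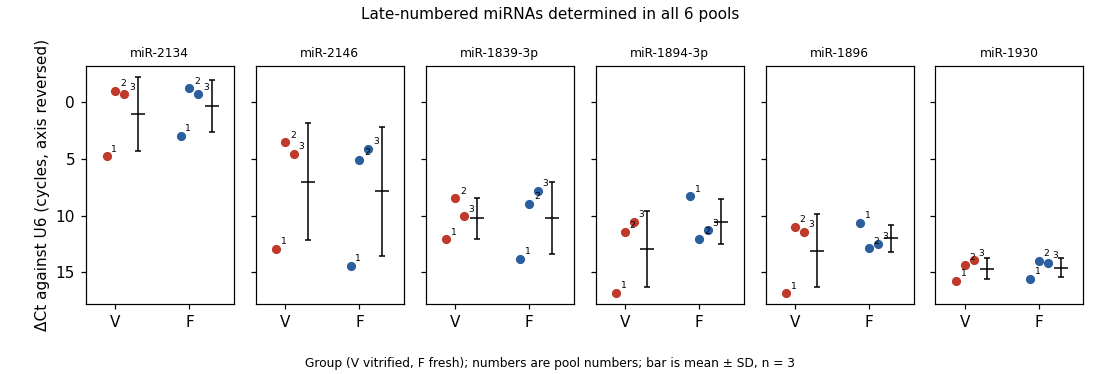
ΔCt against U6 (vertical axis, cycles, reversed so that more template is up) of the 6 late-numbered miRNAs determined in all pools, by group (horizontal axis); points carry the pool number, and the bar is the mean ± SD of 3 pools. The pools numbered 1 lie lowest in both groups for miR-2134, miR-2146, miR-1839-3p and miR-1930, while for miR-1894-3p and miR-1896 pool 1 is lowest among vitrified and highest among fresh pools.

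The lateness of V1 and F1 held for most late-numbered miRNAs but not all. The 10 members determined in all 3 vitrified pools were a median of 6.16 cycles later in V1 than the mean of V2 and V3. In the fresh group 8 members were determined in all 3 pools, with a median of 2.51 cycles, and 3 of the 8 were earlier in F1. Besides miR-1896 and miR-1894-3p the third was miR-1897-5p, at 26.20 in F1 against 28.05 in F2 and 26.62 in F3. In V1 the exception was miR-1274a, an assay whose sequence resembles the end of a lysine transfer RNA. Its Ct was 25.25 in V1, 25.92 in V2, 25.74 in V3, 25.49 in F2 and 23.94 in F3, and it was undetermined in F1. The medians for the other card B assays were 1.80 in V1 and 1.54 in F1, and those for card A were 5.65 and 6.16.

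Of the other members with the strongest signals, miR-2182 was at 21.81 in V2, 19.72 in V3, 22.61 in F2 and 24.34 in F3. miR-1897-5p was at 25.41 in V2 and 26.04 in V3, and miR-1944 at 34.00 in V1, 24.88 in V2, 23.92 in V3, 25.30 in F2 and 26.37 in F3. miR-1897 lies within the span of Sox2ot, the long noncoding RNA that overlaps the pluripotency gene Sox2. Wells of different assays also differ in PCR efficiency, so the order of members is one of signal and not of molecules.

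Several late-numbered assays gave an early Ct in some pools and none in others. V2, V3, F2 and F3 had more determined assays than V1 and F1. Taking these 4 pools, 22 late-numbered assays had a Ct under 30 in at least 1 of them. Of these, 6 (27.3%) were undetermined in another of the 4, against 6 of 73 other card B assays (8.22%) and 6 of 167 card A assays (3.59%). The 6 were miR-1951, miR-1956, miR-1957, miR-1969, miR-2135 and miR-2138.

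miR-1969 was the most extreme of them. It was at 21.93 in V3, 25.59 in F1 and 19.69 in F3, ranking 8 among all miRNA assays in F3, and undetermined in V1, V2 and F2. miR-2138 was at 28.22 in V1, 31.44 in F1 and 26.13 in F3 and undetermined in the rest, so that it was seen in both pools numbered 1. miR-2135 was at 25.73 in V2, 27.75 in F2 and 26.82 in F3. For none of these did the wells with and without a Ct follow the 2 groups. miR-1951 was at 26.65 in V2 and 27.32 in F3, while miR-1957 at 27.57 and miR-1956 at 28.86 were seen in V3 alone. Each pool has 1 value per assay, and whether an undetermined well was a failed well was not tested.

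The design compares vitrified with fresh blastocysts. Over all 6 pools, 27 late-numbered assays had at least 2 determined values per group and entered the limma fit across 335 miRNA assays. None had an adjusted p under 0.05, none an unadjusted p under 0.05, and the percentages over all tested assays were 0 and 0.299. The median log2 fold change (vitrified over fresh) was 0.09 for the 27 and -0.05 for all 335, and 15 of the 27 were higher in vitrified pools. Among the 6 members determined everywhere, 0 were higher and 0 were lower in every vitrified pool than in every fresh pool, beside 0.82% in each direction over the 122 assays determined in all pools.

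The 5 smallest p-values belonged to miR-2182, miR-1949, miR-1188, miR-1186 and miR-1905, all undetermined in V1 and F1 and all with means higher in vitrified pools. The ΔCt of miR-2182 was 4.09 and 3.20 in the vitrified pools V2 and V3 and 5.68 and 7.18 in the fresh pools F2 and F3, a log2 fold change of 2.78 ± 1.27 (SE; limma adjusted p = 0.998). miR-1949 had a ΔCt of 10.52 and 11.22 against 12.70 and 14.28, a log2 fold change of 2.62 ± 1.26 (SE; limma adjusted p = 0.998). In both assays the vitrified and fresh pools did not overlap.

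miR-1188 had a ΔCt of 12.85 in V2, 12.65 in V3, 14.72 in F2 and 14.54 in F3, and a log2 fold change of 1.89 ± 1.12 (SE; limma adjusted p = 0.998). For miR-1186 the ΔCt was 12.60, 12.41, 14.13 and 14.47 in the same order, with a log2 fold change of 1.79, and for miR-1905 it was 11.81, 13.09, 13.96 and 14.41, with 1.74. Within each group the 2 pools of miR-1188 and of miR-1186 lay less than 1 cycle apart, and the groups were further apart than that. With 2 pools against 2 no exact permutation test can give a p under 0.333.

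With the pool number as a block, 26 late-numbered assays could be fitted and 1 had an unadjusted p under 0.05, miR-1949 (log2 fold change 2.62, limma adjusted p = 0.989), beside 1.21% of the 330 assays fitted. The block moved the median log2 fold change to 0.87 for the members and 0.26 for all fitted assays.

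Without V1 and F1 the late-numbered assays were more often higher in the vitrified pools. Of the 25 determined in all of V2, V3, F2 and F3, 10 were higher in both vitrified pools than in both fresh pools and 0 were lower in both. Over all 326 miRNA assays determined in these 4 pools the shares were 18.1% higher and 10.7% lower, and over the other 105 of card B the counts were 16 and 15. The median log2 difference was 0.86 for the late-numbered assays, -0.02 for all assays and 0.00 for the other card B assays. In 19 of the 25 the mean was higher in vitrified pools, against 52 of the other 105 of card B. Large differences were not confined to the late-numbered set. Among the other card B assays miR-669n, miR-466g and miR-463 were at 2.43, 2.26 and 2.04, and miR-503# and miR-322# at -2.41 and -2.14. In the limma fit of these 4 pools 0 of the 25 had an adjusted p under 0.05 (smallest 0.711), and 4 had an unadjusted p under 0.05, all higher in vitrified pools, beside 3.68% higher and 1.23% lower over all assays. That count of 4 moved with the reference and the Ct limit. It ran from 1 with snoRNA202 to 9 with the mean of the assays determined in all pools. Over all 326 assays the counts were 23 with snoRNA202 (6 higher, 17 lower) and 32 with that mean (25 higher, 7 lower).

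**Figure D4:**
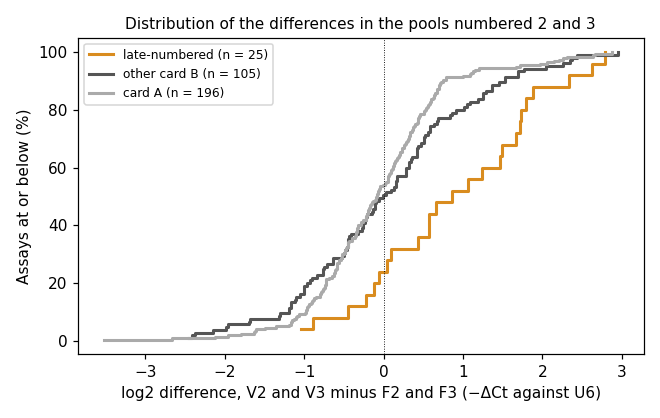
Cumulative share of assays (vertical axis, %) at or below a given log2 difference between V2 and V3 and F2 and F3 (horizontal axis, −ΔCt against U6), for 25 late-numbered, 105 other card B and 196 card A assays. The late-numbered curve lies to the right, with a median of 0.86 and quartiles of 0.04 and 1.72, against quartiles of -0.76 and 0.63 for the other card B assays; with snoRNA202 in place of U6 the median of the late-numbered assays is 0.06 and that of all assays -0.63.

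The 10 were miR-1186, miR-1188, miR-1839-5p, miR-1896, miR-1905, miR-1944, miR-1949, miR-1960, miR-1971 and miR-2182. Their log2 differences ran from 0.86 for miR-1839-5p to 2.78 for miR-2182, or 1.81-fold to 6.89-fold. miR-1960 had a ΔCt of 15.99 in V2, 16.57 in V3, 18.57 in F2 and 17.43 in F3, a 3.29-fold difference. miR-1971 had 12.09 and 11.98 against 13.29 and 13.26, a 2.36-fold difference in which the pools of a group nearly coincided. miR-1896 was 2.76-fold and miR-1944 2.82-fold higher. Of the 10, 4 were determined in V1 and 1 in F1, and with these wells the means of miR-1839-5p, miR-1896, miR-1944 and miR-1971 turned lower in vitrified pools, with log2 fold changes of -0.58, -1.09, -1.52 and -1.16.

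In the other 15 members the pools overlapped, with log2 differences from -1.05 for miR-1274a to 2.34 for miR-1938, and 9 of the 15 were above 0. The difference of miR-1938 rested on 1 late well, since its Ct was 33.84 in V2, 32.88 in V3 and 33.24 in F3 but 38.03 in F2. miR-1961, with its let-7 seed, was at 34.89 in V2, 34.75 in V3, 33.02 in F2 and 36.57 in F3, and its fresh pools lay on both sides of the vitrified ones. miR-1928 was at 35.16, 31.61, 33.25 and 32.48 in the same order, also with overlap.

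**Figure D5:**
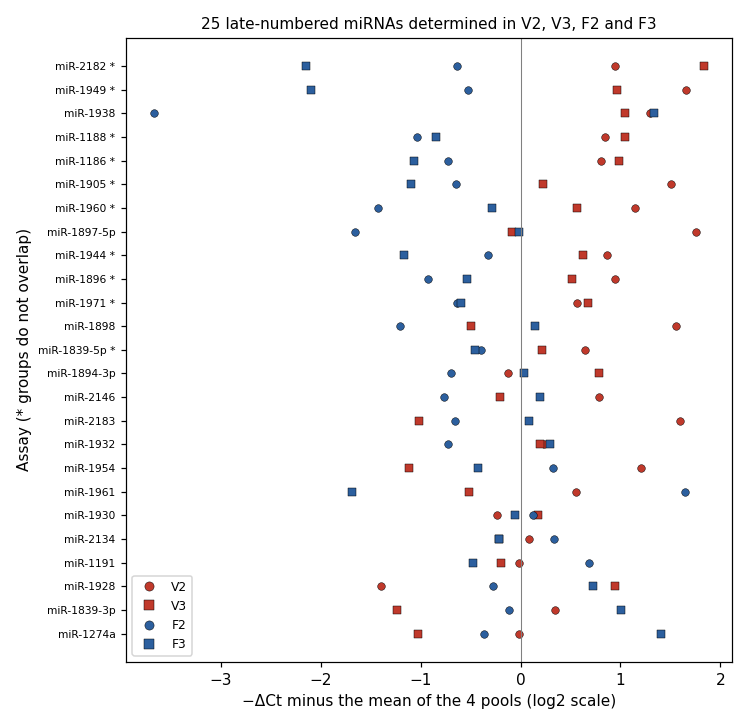
−ΔCt of each of the 25 late-numbered miRNAs in V2, V3, F2 and F3, as the distance from the mean of the 4 pools (horizontal axis, log2 scale; right means more template), with 1 row per miRNA; red marks vitrified, blue fresh, circles pool 2 and squares pool 3. In the 10 rows with an asterisk both vitrified pools lie to the right of both fresh pools, and with snoRNA202 as the reference 8 of those 10 stay separated.

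The shift was not the same for each choice of pools. Against F2, 20 of the 25 late-numbered assays were higher in V2 and 18 in V3, and against F3 the counts were 18 and 15. Over all 326 assays they were 247 and 172 against F2, and 160 and 102 against F3. These comparisons share pools and are not independent.

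The size of the shift depended on the reference. A reference moves all assays of a card in a pool alike, so the gap of 0.86 between the medians of the late-numbered and the other card B assays is the same with each by construction. With snoRNA202 in place of U6, 8 were higher and 5 lower without overlap, against 6.75% and 39.0% of all assays, and the median was 0.06 for the members and -0.63 for all. With the mean of the assays determined in all pools as the reference, 16 were higher and 1 lower, against 31.3% and 11.3% of all. The medians were 1.19 and 0.31. With raw Ct, 13 were higher and 2 lower, against 15.3% and 26.1% of all assays, and the medians were 0.79 and -0.20. The 10 named above were chosen by their values under U6 in these same wells, and each reference moves their differences by the same amount. None of these moves exceeded the smallest of their differences, so their higher mean with each reference adds no support. miR-1839-5p was left at 0.06 with snoRNA202. Without overlap were 8 of the 10 with snoRNA202 and all 10 with the others. miR-1274a, by contrast, was lower without overlap under each reference but U6.

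Markers of other cells, all on card A, were also compared between these 4 pools. Of 9 such miRNAs, 8 were determined in all 4 pools, 3 were higher in both vitrified pools and 1 was lower. Over the card A assays determined in these pools the shares were 16.8% higher and 10.2% lower. Those higher were miR-451 of red blood cells, miR-223 of white blood cells and miR-124 of neurons, with log2 differences of 1.15, 0.24 and 2.06. The lower one was miR-449a of ciliated epithelium, at -0.34. The groups overlapped for miR-142-3p of white blood cells (0.79), miR-34c of ciliated epithelium (0.05) and the muscle miRNAs miR-1 (0.40) and miR-133a (-0.80). The summed level of the 9 was 4.50% and 5.91% of U6 in V2 and V3 and 3.37% and 3.70% in F2 and F3, and miR-122 of liver was undetermined in V2 and F3. The blastocyst cluster from miR-291a-3p to miR-295 summed to 0.401% in V2, 1.86% in V3, 1.65% in F2 and 0.554% in F3, so that V2 and F3 were low and the groups overlapped. The log2 differences of these 5 card A assays ran from -0.85 for miR-295 to -0.01 for miR-292-3p. Outside the sum, miR-290-5p on card B was at 2.95. Its Ct was 31.75 in V2, 27.56 in V3, 29.83 in F2 and 35.25 in F3. The card B assays miR-292-3p and miR-291-3p were at 0.43 and -0.92. The part of these cells in the shift of the late-numbered miRNAs was not tested.

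Of the 5 hairpins with an assay for each arm, 2 gave a Ct for one arm alone, 2 for both arms and 1 for neither. miR-1839-5p was at 33.38 in V1, 28.90 in V2, 28.13 in V3, 29.16 in F2 and 29.45 in F3 and undetermined in F1. It crossed later than miR-1839-3p by 1.54 cycles in V3 to 4.46 cycles in F3. In the pools numbered 2 and 3 the arms went apart, with log2 differences of 0.86 for the 5p arm and -0.89 for the 3p arm, of which only the first was without overlap against U6. With the mean of assays as the reference this was also so, at 1.19 and -0.56. With snoRNA202 the 5p arm was at 0.06 with overlap and the 3p arm at -1.69 without overlap. With raw Ct both were without overlap, at 0.79 and -0.96.

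miR-1894-3p was determined in all 6 pools and miR-1894-5p in none. miR-1897-5p was determined in 5 pools and miR-1897-3p in none, and both arms of miR-1933 were undetermined throughout. miR-1941-3p was at 34.92 in V1 alone, and miR-1941-5p at 37.31 in V2 and 37.21 in F2. Of these pairs miR-1839 alone gave a Ct for both arms in the same pool. The arms are separate assays, and their efficiencies were not measured.

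Members with known unusual origins were also looked at singly, besides miR-1274a above. The mirtrons miR-1224 and miR-1981 were undetermined in all pools. miR-1982.1 was at 32.47 in V2 and 34.09 in F3, and miR-1982.2 at 34.49 in V1 and 35.96 in F2, so each was seen once per group and never in the same pool. miR-1306 was at 32.77 in V1, 30.74 in V2, 38.71 in F1, 30.31 in F2 and 30.58 in F3 and undetermined in V3. The pools V2, F2 and F3 lay within 1 cycle of each other, and the log2 fold change of 2.14 over the 5 pools came with a limma adjusted p of 0.998. It rested on the late well of F1, without which it was -0.67, and with the pool number as a block it was 3.53.

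Of the Dlk1-Dio3 members, miR-1188 was determined in 4 pools, as given above. miR-1193 was at 38.02 in V3, 34.08 in F2 and 34.31 in F3, miR-1197 at 35.27 in V3 alone, and miR-1906, within the span of Meg3, was undetermined in all pools.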

How the data were processed

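From each pool the authors took 30 ng of total RNA, made cDNA, pre-amplified it and ran 40 cycles of real-time PCR on the TaqMan rodent miRNA cards A and B. They deposited the raw Ct of each of 768 wells per pool, without normalization. Per the labels each miRNA was measured in triplicate, and the 6 columns hold 1 Ct per assay and pool. Pre-amplification and a Ct cutoff limit what late wells can show. The authors also deposited signed fold changes between groups against U6, which were not used. No replicates shared an identical Ct.

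Wells undetermined or at 40 cycles or more were left out, as in the study's methods. ΔCt was the Ct minus the mean of 4 U6 wells of the same card and pool. Assays with at least 2 values per group were fitted on −ΔCt in R 4.3.3 by limma 3.58.1 (lmFit, then eBayes), with Benjamini-Hochberg adjustment over all 335 miRNA assays. The step was also run on simulated data with independent noise of the same SD for all assays and no outlying pools. That run cannot show how the fit performs with pools like V1 and F1. A fit drops the pools in which an assay is undetermined. Single assays were compared by 2-sided exact permutation tests, 20 arrangements for 3 against 3. Tables were handled in Python 3.11.15 (numpy 2.4.6, pandas 2.3.3, scipy 1.17.1).

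Groups and pool numbers come from the sample labels. Whether equal numbers pair the pools was checked by correlating deviations from the group means over the 122 assays determined in all pools. The correlations were 0.80, 0.78 and 0.67 for numbers 1, 2 and 3, so a fit with the number as a block was made too. The deviations of 3 pools sum to 0 and those of V1 and F1 are the largest, so these 3 values are not independent and do not show that the pools were paired.

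The members, lists and named miRNAs were chosen with earlier results of these data known. Named by rule were members determined in all 6 pools, the 10 with the highest mean −ΔCt among those in at least 3 pools, the 5 with the smallest p, pairs that share a number, and those of known origin. Members without overlap in the pools numbered 2 and 3, early but incomplete members, miR-1928, miR-1938 and miR-1961 were chosen after their values were seen. Blastocyst markers were miR-290 to miR-295 and the miR-302 family, and those of other cells were miR-451, miR-223, miR-142-3p, miR-122, miR-1, miR-133a, miR-124, miR-34c and miR-449a, without miR-144, whose assay is named for human. Sequences and positions are those of RefSeq on GRCm38.p6, used only to describe the assays. Alternatives were other references, a limit of 35 cycles, late or undetermined wells set to 35 or 40 cycles, the block and leaving out pools.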

Additional observations from a re-analysis of the deposited data

How the results depend on the processing

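No late-numbered miRNA had an adjusted p under 0.05 in any of the 20 limma fits run. Of the values of the comparisons under the alternatives, 67 kept their direction or stayed within the spread or 1.5 times the count, and 10 did not. The number with an unadjusted p under 0.05, 0 over all 6 pools, was 1 with the pool number as a block and 4 in the pools numbered 2 and 3 alone. Over all assays fitted the counts were 1 of 335, 4 of 330 and 16 of 326 in the same order. The number of members ranged from 0 to 3 when each pool was left out in turn, with 3 without V1, beside 10 of 326 assays. The block changed no other call. In the pools numbered 2 and 3, the 4 became 1 with snoRNA202 and 9 with the mean of the assays determined in all pools. It became 5 without a reference and 6 with a limit of 35 cycles. These alternatives were chosen after seeing the data. Over all assays fitted the counts were 23, 32 and 20 of 326 and 17 of 299 in the same order. In the pools numbered 2 and 3 the count lower without overlap was 5 with snoRNA202, 1 with the mean of assays and 2 without a reference. The shares over all assays were 39.0%, 11.3% and 26.1%. The count higher was 16 with the mean of assays, beside 31.3% of all assays, and the median was 0.062 with snoRNA202. The difference in members determined per pool, 0 over all pools, was -2.5 in the pools numbered 2 and 3 and ranged from -8.83 without F1 to 6.33 without V1.

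The log2 fold changes of single miRNAs changed sign in 48 values and kept it in 172. With snoRNA202 they were -0.50 for miR-2146, 1.15 for miR-1274a, -2.64 for miR-1897-5p, 0.29 for miR-1944, 1.23 for miR-1839-5p and 0.65 for miR-1971. With the mean of assays they were 0.10 for miR-1839-3p, 0.032 for miR-1930, 0.030 for miR-1274a and 0.12 for miR-1839-5p. With a limit of 35 cycles they were -0.67 for miR-1306 and 1.24 for miR-1971. With undetermined wells at 40 cycles they were -0.999 for miR-1306, 4.48 for miR-1274a, -3.22 for miR-1897-5p, 3.25 for miR-1944, 3.04 for miR-1839-5p and 2.12 for miR-1971, and with late wells at 35 cycles -0.57, 2.81, -1.56, 1.59, 1.37 and 1.09 in the same order. In the pools numbered 2 and 3 they were 1.47 for miR-1896 and 0.66 for miR-1894-3p, and there and with the block 1.49 for miR-1944, 0.86 for miR-1839-5p and 1.24 for miR-1971. The cause was not tested. Leaving out each pool in turn gave ranges of -2.39 to 3.84 for miR-2146, -1.99 to 1.18 for miR-2134, -1.83 to 1.15 for miR-1839-3p, -2.13 to 0.78 for miR-1896, -0.59 to 0.43 for miR-1930, -0.67 to 3.56 for miR-1306, -3.09 to 1.49 for miR-1944, -1.41 to 0.86 for miR-1839-5p and -2.39 to 1.24 for miR-1971, and -1.56 to 1.07 for the median of the tested members. The number of pools, the 40-cycle limit and 1 value per assay and pool limit the precision, and a difference that missed the threshold is not shown to be absent.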
